A study of Mus musculus with 8 samples.

Results

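Transcripts of 7 subunits of the GABA-A receptor were compared between the hippocampus of wild-type mice and of mice lacking Mbd2, a protein that binds methylated CG dinucleotides. The subunits were Gabra2, Gabra3, Gabra4, Gabra5, Gabrb1, Gabrb2 and Gabrd, taken by symbol from a table of 19201 genes, and all 7 were among the 14504 genes that passed the filter on low counts. RNA depleted of ribosomal RNA was sequenced from 4 wild-type and 4 Mbd2-/- libraries, each pooling the hippocampi of 2 mice aged 10 to 12 weeks. The mutants carried the Mbd2-/- genotype on a C57BL/6 background and were compared with wild-type mice, with breeding from heterozygous parents in both cases. By the study's methods, hippocampi of both sexes were used together, in numbers balanced between genotypes, and the mutant allele still transcribes the first exon of Mbd2. Counts of sex-linked genes, given with Gabra3 below, show no sign of female hippocampi. The total count over the Mbd2 gene was 295, 363, 371 and 354 in wild-type libraries 1 to 4 and 244, 240, 339 and 217 in the Mbd2-/- libraries, so the genotypes overlapped, through Mbd2-/- replicate 3. Mbd2 was called lower in the mutants (log2 change -0.43, adjusted p = 0.0174, limma), while a count over the whole gene that includes a transcribed exon checks the labels only weakly. Values are normalized counts: reads per gene divided by a factor that puts the libraries on 1 scale.

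GABA-A receptors are chloride channels built of 5 subunits that open when GABA, the main inhibitory transmitter of the adult brain, binds between a beta and an alpha subunit. Receptors with a gamma subunit and alpha subunits such as Gabra2 or Gabra3 gather at synapses and carry brief inhibitory currents. Receptors holding Gabra5 or Gabrd lie largely outside synapses, where they sense low ambient GABA and carry a steady, tonic current. In the hippocampus, pyramidal cells are rich in the Gabra5 subunit, and dentate granule cells pair Gabrd with Gabra4.

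The 7 genes lie at 4 autosomal places and on the X chromosome (mm9, GENCODE vM1). Gabra2 (chr5:71352296-71487088, minus strand), Gabra4 (chr5:71960973-72049547, minus strand) and Gabrb1 (chr5:72091171-72529628, plus strand) form a cluster of 1177.3 kb, in which 41.6 kb separate Gabra4 from Gabrb1. Gabrb2 lies at chr11:42233259-42446092 on the plus strand, Gabra5 at chr7:64663060-64765379 on the minus strand, Gabrd at chr4:154759089-154772221 on the minus strand and Gabra3 at chrX:69678020-69902187 on the minus strand. Because Mbd2 binds methylated CG, the 250 bases upstream of the first listed RefSeq start (GRCm38.p6) are shown for the 3 members that passed the genotype test described further on, with every CG dinucleotide in capitals; 6 of the 7 members had such an entry, the exception being Gabrd. Each window was found unchanged and once in mm9, at chrX:69902259-69902508 (minus strand) for Gabra3, chr11:42233692-42233941 (plus strand) for Gabrb2 and chr7:64765430-64765679 (minus strand) for Gabra5, and each is written 5′ to 3′ on the strand of its gene.
Gabra3: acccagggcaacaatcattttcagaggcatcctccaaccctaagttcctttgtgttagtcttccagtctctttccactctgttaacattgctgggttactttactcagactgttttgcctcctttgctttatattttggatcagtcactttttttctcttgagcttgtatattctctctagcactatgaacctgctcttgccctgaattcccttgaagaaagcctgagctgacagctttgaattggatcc
Gabrb2: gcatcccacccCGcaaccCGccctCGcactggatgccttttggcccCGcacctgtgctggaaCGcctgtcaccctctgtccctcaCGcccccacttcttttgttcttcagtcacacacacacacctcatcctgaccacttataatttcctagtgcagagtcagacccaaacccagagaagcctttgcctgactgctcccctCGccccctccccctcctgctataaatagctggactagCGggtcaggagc
Gabra5: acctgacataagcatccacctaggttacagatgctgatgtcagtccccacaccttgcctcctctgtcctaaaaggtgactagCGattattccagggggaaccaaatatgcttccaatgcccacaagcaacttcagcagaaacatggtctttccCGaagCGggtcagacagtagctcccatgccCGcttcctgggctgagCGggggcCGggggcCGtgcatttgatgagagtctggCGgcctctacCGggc
The letters CG read the same on both strands. The Gabra3 window held 0 CG, as did 8.3% of the first windows of 27025 genes. The Gabrb2 window held 8 and the Gabra5 window 9, against a median of 6 over all genes. By GENCODE vM1 the Gabrb2 gene starts further upstream than by RefSeq, so its window lies within the gene as placed above. RefSeq lists further starts, whose windows held 8 and 4 CG for Gabrb2, 0 for Gabra3 and 6 for Gabrb1. Among members that did not pass the test, the first windows of Gabra2 and Gabrb1 held 18 each and that of Gabra4 held 12. Methylation and Mbd2 binding were not measured in these libraries, so the windows describe sequence only.

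The libraries held 8087750 to 23790825 reads on genes, and 3185 of the 14504 genes tested differed between genotypes, 1450 lower and 1735 higher in Mbd2-/-, with a median absolute log2 change of 0.15 over all genes tested. Some marker lists moved with genotype, beside shares of 10.0% called lower and 12.0% called higher over all genes tested. All 16 choroid plexus markers were called higher, with a summed normalized count of 15043 to 16337 in wild-type and 32402 to 39654 in Mbd2-/- libraries. For thalamus, 14 of 16 tested markers were called lower, at 8637 to 8898 against 6031 to 6830. Of markers of the tissue itself, 5 of 10 for CA1 pyramidal cells were called lower (sum 10670 to 10781 against 8982 to 9697), while 3 of 10 for dentate granule cells were called higher and 1 lower (9253 to 9380 against 8988 to 9342). For CA3 pyramidal cells 1 of 9 was called in each direction, for GABAergic interneurons 5 of 15 lower and 4 higher, for striatum 1 of 9 lower and 2 higher, and for astrocytes, oligodendrocytes and microglia 6 higher each, of 9, 9 and 8. Calls of the CA3, striatum, dentate and interneuron lists thus went both ways, with median log2 changes of -0.03, -0.13, -0.07 and -0.21. Mbd2-/- replicate 4 stood apart from the other mutants: its genes' deviation from the wild-type mean was nearly unrelated to transcript length (rho = -0.09 over 13112 genes), whereas rho was -0.49, -0.43 and -0.48 in replicates 1 to 3, where longer transcripts read lower, and its choroid plexus sum was the lowest and its thalamus sum the highest of the mutants. With the trend of each library on transcript length removed, in a fit of the 13112 genes with a length, the interneuron markers gave 5 lower and 1 higher of 14, microglia 3 higher and striatum 1 higher, while astrocytes gave 8 higher and choroid plexus 16 higher. In bulk tissue, fewer cells of a type and less RNA per cell cannot be told apart, and the part of these shifts in the subunit values below was not tested.

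Subunits were expressed over a wide range in the wild-type hippocampus. Per kb of annotated exon, the normalized count was 688 ± 31.4 (SD, n = 4) for Gabra5, 381 ± 30.8 for Gabra4, 338 ± 20.6 for Gabrb2, 241 ± 14.8 for Gabra2, 234 ± 10.8 for Gabrb1, 173 ± 8.96 for Gabra3 and 146 ± 6.9 for Gabrd. Libraries of Gabra4 and Gabrb2 overlapped in this quantity, as did those of Gabra2 and Gabrb1, while the libraries of Gabra5 lay above those of every other member. In Mbd2-/- the same quantity was 767 for Gabra5, 396 for Gabra4, 278 for Gabrb2, 217 for Gabra2, 211 for Gabrb1, 160 for Gabrd and 144 for Gabra3, so the mean of Gabra3 came to lie below that of Gabrd. Mutant libraries of these last genes overlapped, at 131 to 163 for Gabra3 and 146 to 173 for Gabrd.

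In Mbd2-/- hippocampus, Gabrb2 and Gabra3 fell and Gabra5 rose, and the other 4 members did not pass the test (limma on log2 normalized counts, Benjamini-Hochberg adjustment over 14504 genes, threshold 0.05). Among 7 members, 2 were called lower, where 10.0% of all genes tested were, and 1 was called higher, where 12.0% were. In 2 of the 7 the libraries of the genotypes did not overlap, against 23.6% of all genes tested. No reading is taken from these counts over so few members, and the description rests on the values of each gene. The median log2 change over the members was -0.15, beside -9e-05 over all genes tested.

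**Figure D1:**
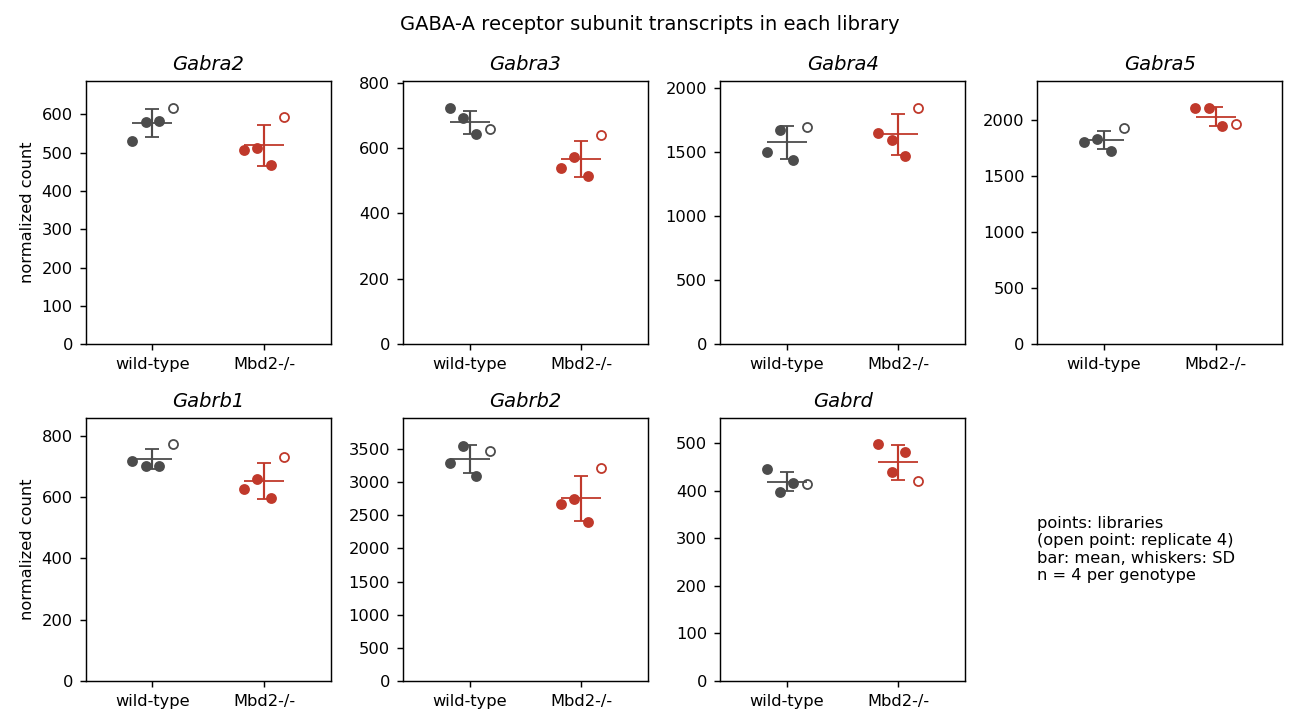
Normalized count (vertical axes, each from 0) of each of the 7 subunits in the 4 wild-type and 4 Mbd2-/- libraries; points are libraries, the open point is replicate 4, and the bar and whiskers give mean and SD. Gabra3 libraries lie at 643 to 721 in wild-type and at 515 to 639 in Mbd2-/-, and in 5 of 7 genes the highest mutant library is replicate 4.

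Among the subunits of synaptic receptors, Gabra3 encodes an alpha subunit best known from monoaminergic and reticular thalamic neurons. Its normalized count was 721, 693, 643 and 658 in wild-type libraries 1 to 4 and 538, 573, 515 and 639 in Mbd2-/- libraries 1 to 4. Every mutant library lay below every wild-type library, the nearest being Mbd2-/- replicate 4 and wild-type replicate 3. Gabra3 fell by 0.26 ± 0.07 (SE) on the log2 scale, 95% interval -0.42 to -0.11, to 0.833 of the wild-type level (adjusted p = 0.0157, limma). The call was lost without wild-type replicate 1 (adjusted p = 0.0623, limma) or Mbd2-/- replicate 1 (0.0555), and the log2 change was -0.22 to -0.32 whichever library was left out. Gabra3 lies on the X chromosome, and the labels do not give the sex of the pooled mice. The summed normalized count of 4 Y-linked genes was 1300 to 1440 in wild-type libraries, 1353 to 1548 in Mbd2-/- replicates 1 to 3 and 1965 in replicate 4, and Uty among them was called higher in Mbd2-/- (log2 change 0.27, adjusted p = 0.0456, limma). Xist was at 0 to 5.77 in the 8 libraries, and its antisense gene Tsix at no more than 1.83. These counts show no sign of the female hippocampi that the methods name, although reads shared by overlapping genes cannot be told apart here. The part of sex balance in the Gabra3 values was not tested.

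Gabra2 encodes an alpha subunit found at synapses on the cell body and axon initial segment. Wild-type libraries 1 to 4 held 531, 579, 583 and 617 normalized counts of Gabra2, and Mbd2-/- libraries 507, 511, 467 and 594. Mutant replicate 4 lay inside the wild-type range and the other mutants below it. The log2 change was -0.15 ± 0.08 (SE), interval -0.32 to 0.01, and did not pass the test (adjusted p = 0.156, limma). Without Mbd2-/- replicate 4 it was -0.22 and passed (adjusted p = 0.0093, limma).

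Of the beta subunits, which complete the GABA site, Gabrb2 was the most counted member. Its normalized count was 3297, 3547, 3089 and 3473 in wild-type and 2676, 2744, 2400 and 3221 in Mbd2-/- libraries 1 to 4. Mutant replicates 1 to 3 were below all wild-type libraries, and replicate 4 exceeded wild-type replicate 3. Gabrb2 fell by 0.29 ± 0.07 (SE) on the log2 scale, interval -0.44 to -0.13, to 0.82 of the wild-type level (adjusted p = 0.0126, limma). The call held when any of the 8 libraries was left out (adjusted p between 8.23e-06 and 0.0436, limma), but once the trend of each library on transcript length was removed, the change was -0.16 and missed the threshold (adjusted p = 0.0504, limma). Without trended and robust moderation of the variances, neither Gabrb2 (adjusted p = 0.0712, limma) nor Gabra3 (0.0542) passed.

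Gabrb1, the beta subunit of the chromosome 5 cluster, held 719, 700, 703 and 772 normalized counts in wild-type and 627, 658, 596 and 731 in Mbd2-/- libraries 1 to 4. Mutant replicate 4 again fell among the wild-type libraries. Its log2 change of -0.15 ± 0.07 (SE), interval -0.30 to -0.01, did not pass after adjustment (adjusted p = 0.126, limma), and without Mbd2-/- replicate 4 it was -0.21 (adjusted p = 0.00782, limma). A RefSeq start of Gabrb1 lies antisense within the first part of Gabra4, and since strand use in the counting was not given in the sources used here, reads there cannot be told apart.

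Of the 2 extrasynaptic subunits, Gabra5, which carries much of the tonic current of hippocampal pyramidal cells, was called higher. Its normalized count was 1805, 1838, 1729 and 1930 in wild-type and 2107, 2107, 1949 and 1971 in Mbd2-/- libraries 1 to 4. The mutant libraries lay above all wild-type libraries, by a narrow margin between Mbd2-/- replicate 3 and wild-type replicate 4. Gabra5 rose by 0.16 ± 0.05 (SE) on the log2 scale, interval 0.04 to 0.27, or by 11.4% (adjusted p = 0.0454, limma). The call stood so close to the threshold that leaving out any of the wild-type libraries, or Mbd2-/- replicate 1 or 2, ended it (adjusted p between 0.0517 and 0.145, limma), as did removing the length trend (log2 change 0.12, adjusted p = 0.11, limma); the direction stayed in each.

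Gabrd, the delta subunit of high-affinity receptors sensitive to neurosteroids, was counted at 445, 397, 417 and 415 in wild-type and at 498, 439, 481 and 420 in Mbd2-/- libraries 1 to 4. The genotypes overlapped through wild-type replicate 1, which was above Mbd2-/- replicates 2 and 4. Its log2 change was 0.13 ± 0.07 (SE), interval -0.02 to 0.28 (adjusted p = 0.195, limma), and without Mbd2-/- replicate 4 it was 0.17 (adjusted p = 0.0455, limma).

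Gabra4, the partner of Gabrd in dentate granule cells, held 1499, 1669, 1433 and 1691 normalized counts in wild-type and 1647, 1588, 1463 and 1844 in Mbd2-/- libraries 1 to 4. The ranges overlapped over most of their width. The log2 change was 0.05 ± 0.07 (SE), interval -0.10 to 0.21 (adjusted p = 0.624, limma), and its sign was not stable, at -0.004 without Mbd2-/- replicate 4.

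Mbd2-/- replicate 4 was the highest mutant library in 5 of the 7 genes and replicate 3 the lowest in 6. Without replicate 4, 4 members were called lower (Gabra2, Gabra3, Gabrb1 and Gabrb2) and 2 higher (Gabra5 and Gabrd), while the number of genes called over the whole table rose from 3185 to 5155.

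**Figure D2:**
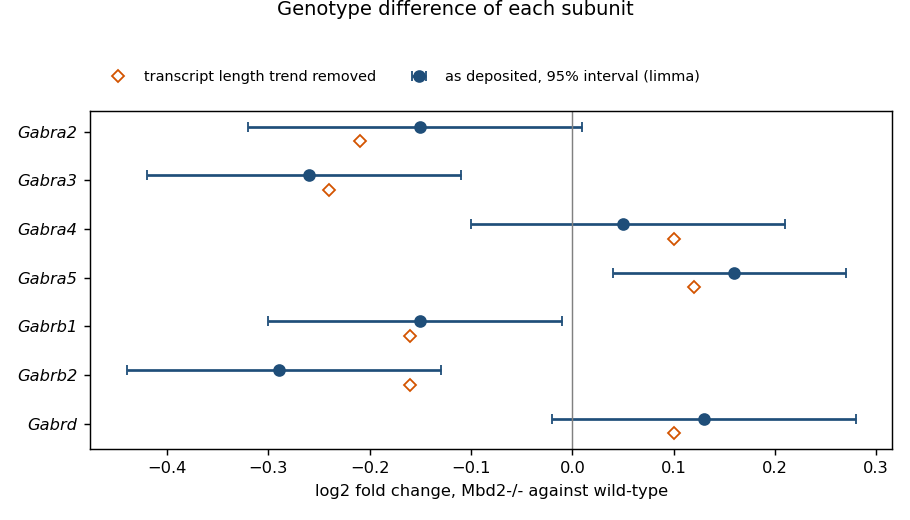
Log2 fold change of each subunit, Mbd2-/- against wild-type, with 95% intervals from limma (circles, n = 4 per genotype) and the value after the trend of each library on transcript length was removed (diamonds). Intervals of Gabra3, Gabra5, Gabrb1 and Gabrb2 leave out 0 before adjustment, and the diamond of Gabrb2 sits nearer 0, at -0.16 against -0.29.

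Balance between subunits was then read within each library, where the scaling of libraries cancels but a trend on transcript length does not. The ratio of Gabra5 to Gabra2, the alpha subunits of tonic and synaptic receptors, was 1.77, 1.67, 1.57 and 1.65 on the log2 scale in wild-type and 2.06, 2.04, 2.06 and 1.73 in Mbd2-/- libraries 1 to 4. Mutant replicates 1 to 3 lay above all wild-type libraries and replicate 4 fell among them. As a plain ratio, the mean was 3.16 in wild-type and 3.92 in Mbd2-/-, a log2 difference of 0.31 (two-sided exact permutation test over 4 against 4 libraries, p = 0.0571, adjusted over 4 ratios 0.0762).

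Gabra4 to Gabra2 was the ratio whose genotypes did not overlap, at 1.5, 1.53, 1.3 and 1.46 against 1.70, 1.64, 1.65 and 1.63 on the log2 scale. The difference of 0.21 reached the smallest p that the exact permutation test allows with 4 against 4 (p = 0.0286), which became 0.0762 when adjusted over the 4 ratios. Gabrb2 to Gabrb1 averaged 4.63 in wild-type and 4.22 in Mbd2-/-, a log2 difference of -0.14 (exact permutation p = 0.0571, adjusted 0.0762). Gabrd to Gabra4, the pair of granule cell tonic receptors, differed by 0.08 with overlapping libraries (exact permutation p = 0.629, adjusted 0.629). With the trend on transcript length removed, an alternative added after the data were seen, the difference was -0.01 for Gabrb2 to Gabrb1, 0.0009 for Gabrd to Gabra4, 0.33 for Gabra5 to Gabra2 and 0.31 for Gabra4 to Gabra2. None of the 4 ratios passed 0.05 after adjustment, with or without the length trend. A single ratio at the smallest possible p of 0.0286 could not have passed after adjustment over 4, so this is no evidence of unchanged balance.

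The mean log2 level of the extrasynaptic subunits Gabra5 and Gabrd less that of the other 5 members was -0.25, -0.37, -0.28 and -0.34 in wild-type and 0.12, -0.01, 0.15 and -0.28 in Mbd2-/- libraries 1 to 4. It was higher by 0.30 in the mutants, in which replicate 4 stayed within the wild-type range. With Gabra4 counted as extrasynaptic, since it joins Gabrd, the wild-type libraries held 0.09 to 0.12 and the mutants 0.54, 0.41, 0.54 and 0.24, a difference of 0.33 without overlap. With the length trend removed the first difference was 0.24. These are descriptions of chosen genes and were not tested.

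**Figure D3:**
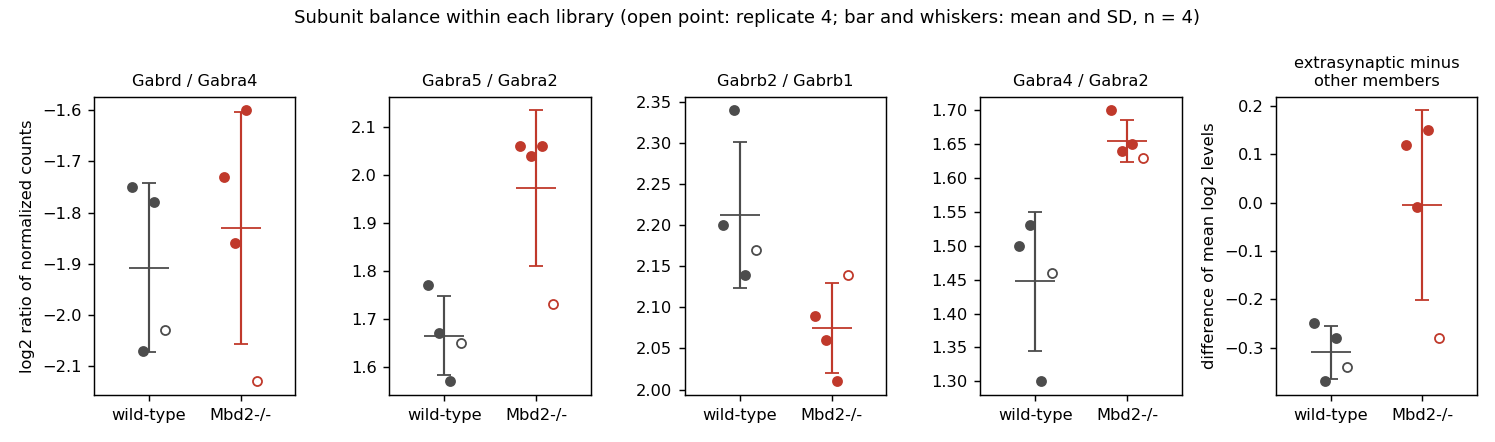
Log2 ratios of normalized counts for 4 pairs of subunits, and the mean log2 level of Gabra5 and Gabrd less that of the other 5 members, in each library (points; open, replicate 4), with mean and SD over 4 libraries per genotype; vertical axes do not start at 0. Gabra4 to Gabra2 separates the genotypes in all libraries, at 1.3 to 1.53 against 1.63 to 1.70, and in 4 of the 5 panels mutant replicate 4 lies near or among the wild-type points.

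The composition of the 4 alpha members was taken from normalized counts per kb of exon, as shares of their sum in each library. Gabra3 made up 11.7% ± 0.796 (SD, n = 4) in wild-type and 9.45% ± 0.541 in Mbd2-/-, with libraries at 10.7% to 12.7% against 8.88% to 10.2% and no overlap. Gabra5 took 46.4% ± 0.522 and 50.4% ± 2.64, where the lowest mutant library lay inside the wild-type range of 45.7% to 46.9%. Gabra2 accounted for 16.3% and 14.2%, and Gabra4 for 25.7% in wild-type and 25.0% to 27.9% in Mbd2-/- libraries, both with overlap. Such shares sum to a whole, so they are not independent, and they were not tested.

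The genes whose profile over the 8 libraries was most like a called member's were found by the root mean square difference of centred log2 levels. For Gabrb2 they were Chl1, a neural cell adhesion molecule (0.0224 on the log2 scale), and Rab3c, a small GTPase of synaptic vesicles (0.028). Gabra3 had Cyld, a deubiquitinase (0.0345), and Tmem255a (0.0359), and Gabra5 had Twf1, an actin-binding twinfilin (0.0318), and Tusc3 (0.0335). Such likeness was measured over 8 libraries that share depth and genotype structure and was not tested.

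Of 9 further GABA-A subunits, listed without regard to how they moved, 8 were in the table and 3 passed the filter. With all libraries and the settings used here, limma and edgeR called 0 in either direction, where limma called 10.0% of all genes tested lower and 12.0% higher. DESeq2 called neither Gabrg1 nor Gabrg3 and gave Gabrr2 no adjusted p. No reading is taken from calls over 3 genes. At an unadjusted p under 0.05 limma had 1 lower (Gabrg3) and 1 higher (Gabrr2). Without Mbd2-/- replicate 4, where 5155 genes were called in place of 3185, both were called, Gabrg3 at -0.37 (adjusted p = 0.0328, limma) and Gabrr2 at 0.88 (0.0392). Without trended and robust moderation Gabrr2 was called (adjusted p = 0.0452, limma). Gabrg1, a gamma subunit, was counted at 298 ± 33 in wild-type and 316 ± 49.5 in Mbd2-/- (log2 change 0.08, interval -0.15 to 0.30, adjusted p = 0.644, limma). Gabrg3, another gamma subunit, was at 84.7 ± 6.83 and 69.1 ± 8.39, a change of -0.30 with an interval of -0.56 to -0.03 (adjusted p = 0.0974, limma), and of -0.15 with the length trend removed (0.436). The rho subunit Gabrr2 was near the filter, at 7.68 ± 2.06 and 13.5 ± 3.28 (interval 0.11 to 1.38, adjusted p = 0.0865, limma). Its wild-type mean lay below the filter of 10, so it was tested only through its level in Mbd2-/-. Gabrq, at 11.7 in wild-type and 5.26 in Mbd2-/- without overlap, had a mean of 8.49 and was not tested. Which of these low genes were tested thus depended on their direction. All 3 tested subunits overlapped between genotypes.

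Genes that anchor, assemble or move GABA-A receptors changed in both directions: of 20 tested, 5 were called lower and 3 higher (10.0% and 12.0% of all genes tested), with a median log2 change of 0.03. Nlgn2, the neuroligin of inhibitory synapses, was counted at 3122, 3037, 3274 and 3162 in wild-type and at 2482, 2600, 2507 and 2460 in Mbd2-/- libraries, a fall of 0.33 ± 0.05 (SE) on the log2 scale (adjusted p = 0.000295, limma). Its libraries did not overlap, and mutant replicate 4 was the lowest of all. Lhfpl4, which links receptors to Nlgn2, changed by -0.31 (adjusted p = 0.00112, limma), Shisa7, an auxiliary subunit, by -0.37 (0.000279), and Hap1, an adaptor for receptor recycling, by -0.46 (8.68e-05). Trak2, a kinesin adaptor that binds GABA-A beta subunits, changed by 0.43 (adjusted p = 8.23e-05, limma). Gabarap, which binds gamma subunits during trafficking, changed by 0.26 (adjusted p = 0.00538, limma), and by 0.07 once the length trend was removed (adjusted p = 0.381, limma). Changes of Nlgn2, Lhfpl4, Shisa7, Hap1 and Trak2 were called in all 13 alternatives with every library and whichever library was left out.

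**Figure D4:**
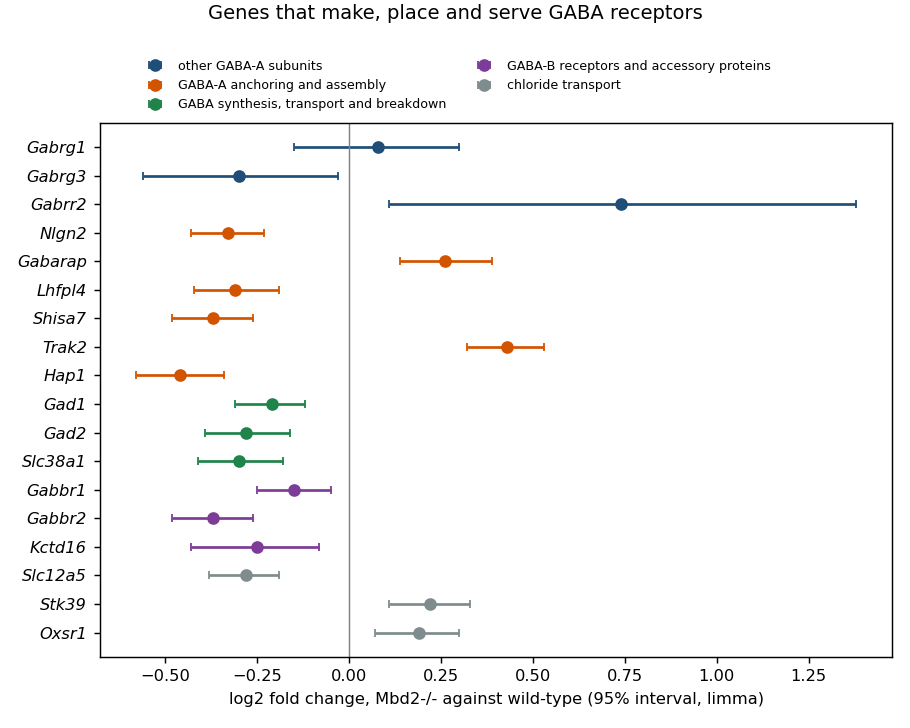
Log2 fold change, Mbd2-/- against wild-type, with 95% intervals from limma (n = 4 per genotype) for 18 genes of 5 lists, coloured by list. Gabrr2, with the lowest counts, has the widest interval (0.11 to 1.38), while Hap1 lies at -0.46 and Trak2 at 0.43.

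Genes of GABA synthesis, transport and breakdown gave 3 calls among 10 tested, each of them lower (10.0% of all genes were), with a median log2 change of -0.22. DESeq2 and edgeR on recovered reads each called 5 lower. Gad1, which makes most of the transmitter, was at 4107 ± 63.4 in wild-type and 3542 ± 130 in Mbd2-/- (log2 change -0.21, adjusted p = 0.00417, limma). Gad2, the form of the enzyme at nerve terminals, changed by -0.28 (adjusted p = 0.00228, limma), and Slc38a1, a glutamine transporter, by -0.30 (0.00143), which became -0.17 (0.0156) with the length trend removed. Their libraries did not overlap between genotypes. Gad1, Gad2 and Slc32a1 are also interneuron markers, so 2 of the 5 interneuron markers called lower are these same genes, and Npy, Sst, Pvalb and Vip of that list were called higher, at log2 changes of 0.72, 0.40, 0.37 and 0.29. With the length trend removed those of Sst, Pvalb and Vip were 0.05, 0.11 and 0.13 and were not called.

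Metabotropic GABA-B receptors, the other receptor class for GABA, were represented by 6 genes, of which the 3 called were lower (10.0% of all genes were), at a median of -0.19. Gabbr2 was at 3211 ± 80 in wild-type and 2483 ± 134 in Mbd2-/- (log2 change -0.37, adjusted p = 0.000202, limma). Gabbr1, its obligate partner, changed by -0.15 (adjusted p = 0.0265, limma) and by -0.07 with the length trend removed (adjusted p = 0.358, limma), and the auxiliary subunit Kctd16 by -0.25 (adjusted p = 0.0382, limma) and by -0.45 with the trend removed (0.00341). Calls of Gabbr1 and Kctd16 held in 3 and 2 of the 8 fits that left out a library, while that of Gabbr2 held in all 8. DESeq2 on recovered reads did not call Kctd16 (adjusted p = 0.053), and without trended and robust moderation neither Kctd16 (adjusted p = 0.0815, limma) nor Gabbr1 (0.0901) was called.

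Chloride transport sets which way current flows through an open GABA-A receptor. Of 7 genes 1 was called lower and 2 higher, where 10.0% and 12.0% of all genes were, and no reading is taken from the list counts alone. Slc12a5, the neuronal chloride extruder, was at 7064, 6796, 7286 and 6898 in wild-type and at 5702, 5995, 5786 and 5540 in Mbd2-/- libraries, with no overlap and with mutant replicate 4 the lowest. It fell by 0.28 ± 0.05 (SE) on the log2 scale (adjusted p = 0.000559, limma). The kinases Stk39 and Oxsr1, which act on chloride cotransporters, changed by 0.22 (adjusted p = 0.00783, limma) and 0.19 (0.0212). The Oxsr1 call held in 3 of the 8 fits that left out a library, being lost without any of the wild-type libraries or Mbd2-/- replicate 2 (adjusted p between 0.0526 and 0.0704, limma), and that of Stk39 held in all 8.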

How the data were processed

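Hippocampal RNA-seq of 4 wild-type and 4 Mbd2-/- pools was analysed. The authors aligned reads to mm9 with STAR, removed duplicates and deposited a signal per gene, the DESeq2 normalized count, with their own comparison columns (mean, fold change, error, p-values), which were not used; tool versions are not given in the sources used here. All values were whole multiples of 1 read per library (100% within 0.01 read), which gave depth. log2(normalized count + 1) of genes with a mean of at least 10 was tested with limma 3.58.1 (trend, robust), unblocked, with Benjamini-Hochberg adjustment; a fold change on this scale slightly understates low genes. DESeq2 1.42.0 and edgeR 4.0.16 on recovered reads, limma-voom, other scalings, filters, pseudocounts, moderation, a replicate block, removal of the transcript length trend (loess, span 0.5) and leaving out each library were alternatives. Scripts were tested on simulated data. Exon lengths and loci came from GENCODE vM1, which matched 86.8% of genes. Labels do not say that replicates were separate litters, so p-values measure the spread between these pools; no pair of libraries agreed within sampling noise. The members and gene lists were chosen with earlier results of these data known. Named were all members, the called genes of each pathway list (at most 6, smallest p first, filled to 3 by expression), Mbd2 and the 2 nearest profiles per called member. Some markers and Gabrq were named besides, to state limits. Some genes are not reported here.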

Additional observations from a re-analysis of the deposited data

Results flagged for a closer look

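Of 24 groups of 4 libraries examined for a sample far from the others, 1 was picked out. In the log2 ratio of Gabra5 to Gabra2, Mbd2-/- replicate 4 was at 1.73 while the other mutants lay between 2.04 and 2.06, and its gap to the nearest of them was 0.945 of the group's range, above the limit of Dixon's test for 4 samples. That limit, set at 95%, picks out about 5% of groups by chance, so a single such group among 24 is near that rate.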

How the results depend on the processing

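Without the trend or robust moderation, 0 members were called lower and 0 higher, with 2177 genes in all in place of 3185. With the length trend removed, 1 was called lower and 0 higher, with 1969 genes of the 13112 that have a length, of which 2911 were called before. The call of Gabra5 was also lost with upper quartile scaling and with no filter on low counts (0 members higher each, with 3195 and 2903 genes). DESeq2, edgeR and limma-voom on recovered reads called 2988, 3172 and 3198 genes and the same count of members (2 lower, 1 higher).

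The replicate numbers did not pair the libraries (correlation of same-numbered libraries -0.10, -0.06, 0.07 and 0.04). With the replicate block 3192 genes, 2 members lower and 0 higher were called, and with the block after length correction 2182 genes, 0 members higher and 3 lower, Gabra2 being added (adjusted p = 0.0303, limma).

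Leaving out 1 library gave 2068 to 5155 genes, 1 to 4 members lower, 0 to 2 members higher and 14 to 25 pathway genes called, against 17. The upper ends came without Mbd2-/- replicate 4, where Gabra4 reversed to -0.004 (-0.004 to 0.11 over the libraries left out). Gabrg1, which was not called, also reversed there, to -0.01 (-0.01 to 0.17 over the libraries left out). The causes were not tested.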
